A study of Homo sapiens with 18 samples.

Results

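Cadherins and protocadherins were followed in foregut endoderm made from H1 cells, an established line of human embryonic stem cells. A gene was a member if its symbol was that of a numbered CDH or PCDH gene, a clustered protocadherin, a cadherin-related CDHR gene, a desmocollin (DSC), a desmoglein (DSG), or a FAT or CELSR gene, and 107 of the 35025 genes in the count table met this rule. The members were 22 CDH genes, 11 non-clustered protocadherins, 54 clustered protocadherins (16 alpha, 16 beta and 22 gamma), 7 desmosomal cadherins, 7 FAT and CELSR genes and 6 cadherin-related genes (the CDHR genes and CDH23). Of these, 84 had enough reads to be tested, beside 15531 genes tested in all. The 23 that did not pass included the intestinal cadherin CDH17, the epidermal desmosomal genes DSG1, DSG3, DSG4 and DSC1, and 10 clustered protocadherins.

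RNA was measured in bulk in 6 groups of 3 libraries, all from wild-type H1 cells. Untreated cells were taken at day 6 and at day 9 of differentiation. The groups treated with RA, taken on the same days, had received 2 µM all-trans retinoic acid (RA) for 24 h ending at day 6. The last groups were taken at day 9 after 72 h of 2 µM CHIR99021, a GSK3 inhibitor that turns on Wnt signalling, with 50 ng/mL of the growth factor BMP4 (CB), either without or after RA. RA is a patterning signal of the foregut, and Wnt and BMP signals are known to induce respiratory fate there.

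Cadherins are calcium-dependent adhesion proteins whose extracellular repeats bind the same or a related cadherin on the next cell. Classical cadherins attach through catenins to actin, and desmosomal cadherins attach through plakoglobin, plakophilins and desmoplakin to keratin filaments. FAT and CELSR proteins are very large cadherins of the planar polarity and Hippo pathways, and the clustered protocadherins are a set of isoforms, each started from its own promoter, best known for giving neurons a surface identity. In endoderm the E-cadherin gene CDH1 marks the epithelium, whereas CDH2 and CDH11 are familiar from mesenchyme, heart and neural tissue.

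Library totals ran from 5.79 to 25.37 M counts (M, mega). Levels are given as CPM (counts per M counts of the library after scaling by edgeR TMM factors), in the order of replicates 1 to 3, and differences as log2 fold changes ± standard error (SE) from an edgeR quasi-likelihood fit over all 18 libraries. A gene was called when its p value, adjusted by Benjamini-Hochberg over all tested genes, was below 0.05. Nothing in the labels says that the 3 libraries of a group came from separate cultures, so a p value here reflects only how far these libraries differ, which may be technical, and in bulk RNA fewer cells of a type and less RNA per cell cannot be told apart. The libraries also fell into 2 kinds by which copies of some genes took the reads: 63 genes, of which 57 were pseudogenes and none a member, differed at least 10-fold between every one of 4 untreated libraries (day 9, and day 6 replicate 2) and every treated library. Day 6 replicates 1 and 3 were set aside for this definition after they were seen to lie between. Of the reads on these pseudogenes, the share on those higher in treated libraries was 93.9% to 95.5% in all 12 treated libraries and 0.347% to 0.613% in the 4 untreated libraries, by that choice, with 9.35% and 18.3% in day 6 replicates 1 and 3. Read kind and treatment cannot be told apart where treated libraries are set against untreated ones: with the share as a covariate, no member was called for RA at day 6, RA at day 9 without CB, or CB without RA, and no more than 63 of all genes in either direction. RA before CB against CB alone, CB after RA against RA alone, and day 9 against day 6 after RA are each within 1 kind, and stand beside the others below. Day 9 untreated replicate 1 also stood apart, with PCDH8 at 47.0 CPM against 11.4 and 8.64, and CDH5 at 1.41 CPM against 20.9 and 21.8. The endothelial and blood markers summed to 72.8 CPM in it, the lowest of that group, and to 504.2 CPM in the highest.

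Of the 84 members tested, 20 were higher and 25 lower after RA at day 6, or 23.8% and 29.8%, beside 25.3% and 23.4% of all genes. At day 9 the same comparison had 19 higher and 41 lower (22.6% and 48.8%, beside 32.5% in each direction over all genes). RA before CB, set against CB alone, had 16 higher and 41 lower (19.0% and 48.8%, beside 21.2% and 22.1%). CB had 14 higher and 18 lower without RA (background 21% and 21.8%), and 18 higher and 27 lower after RA (background 32.1% and 32.3%). From day 6 to day 9, 25 members rose and 22 fell without treatment (background 24% and 22.9%), and 20 rose and 31 fell after RA (background 28.5% and 30.3%). The share of members lower after RA at day 9 exceeded the background with and without CB. Of those members, 31 of 41 without CB and 29 of 41 with it were clustered protocadherins, which made up 44 of the 84 members tested. On the deposited TPM values (levels scaled for transcript length and depth), the median of all genes moved to 0.19 for RA at day 6, 0.28 for RA at day 9, 0.23 for CB without RA and -0.16 for time without treatment in log2, and changes on that scale are relative to these shifts. Of all called genes, 74.6%, 73.1%, 79.6% and 28.3% were then higher, in place of 51.9%, 50%, 49.1% and 51.3%. For RA with CB the median moved by 0.08 only, with 61.9% of called genes higher in place of 48.9%.

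**Figure D1:**
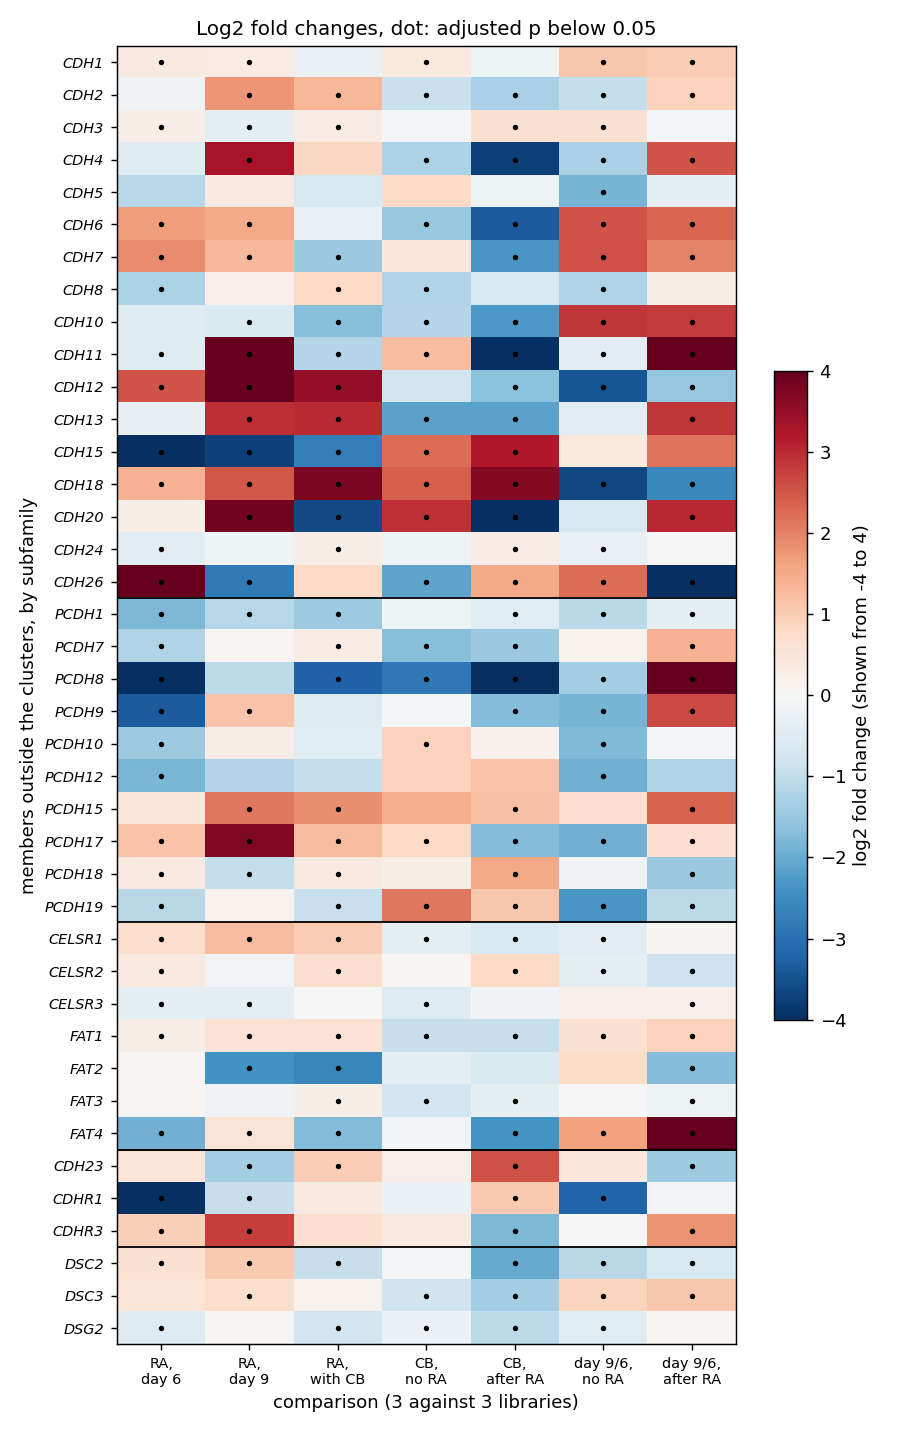
Log2 fold changes of the 40 tested members outside the protocadherin clusters (vertical axis, grouped as CDH, non-clustered protocadherin, FAT and CELSR, cadherin-related and desmosomal genes) in 7 comparisons of 3 against 3 libraries (horizontal axis), red higher and blue lower, with a dot where the gene was called. The colours end at 4 in each direction, and larger differences have the end colour. CDH26 is dark red and PCDH8 dark blue at day 6 after RA, and CDH11 is dark red after RA at day 9 and dark blue when CB followed RA.

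Per transcript length, the deposited TPM placed CDH2 and DSG2 at the top of the members in untreated cells of day 6, with 312 ± 7.76 and 281 ± 13.7 TPM (SD, n = 3), followed by FAT1 at 128 ± 6.64 and CDH3 at 105 ± 5.50. CDH3 and CDH1, at 92.0 ± 8.33 TPM, overlapped within 1 SD. In untreated cells of day 9, DSG2, FAT1 and CDH1 had means of 177 ± 15.9, 173 ± 13.7 and 169 ± 31.9 TPM and did not differ beyond their spread. After RA at day 9 the order was led by CDH2 at 601 ± 85.0 TPM and CDH6 at 485 ± 150.5, which overlapped within 1 SD, and CDH11 at 261 ± 25.8 stood beside CDH1 at 265 ± 35.7. With CB alone, CDH1 led at 265 ± 30.9 TPM and CDH2 was at 91.4 ± 2.90.

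Of the type I classical cadherins, CDH1 was present in every library and its RA differences were small. Its levels were 253, 242 and 203 CPM in untreated cells of day 6 and 296, 321 and 274 after RA, and at day 9 580.2, 389 and 483 untreated and 515, 661 and 630.2 after RA. The day 6 groups did not overlap and the day 9 groups did. The RA difference was 0.36 ± 0.13 in log2 at day 6 (edgeR adjusted p = 0.028) and 0.31 ± 0.13 at day 9 (edgeR adjusted p = 0.037). With CB present it was -0.26 ± 0.12 and did not pass (edgeR adjusted p = 0.1). CDH1 rose with time in both arms, by 1.06 ± 0.13 without and 1.02 ± 0.13 with RA.

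CDH2, N-cadherin, had no called response to RA on the day RA ended, and a large one 3 days later. It stood at 1041, 1032 and 983 CPM in untreated cells of day 6 and at 1008, 921 and 853 after RA, which overlapped (-0.14 ± 0.11 in log2, edgeR adjusted p = 0.35). At day 9 it was 640.3, 418 and 512 CPM untreated and 1501, 1966 and 1841 after RA, 1.75 ± 0.12 higher in log2 (edgeR adjusted p = 5.9e-11), and the groups were far apart. The difference was also called with CB, where CDH2 was 297, 287 and 274 CPM without RA and 713, 752 and 709 after it (1.34 ± 0.12, edgeR adjusted p = 1e-08). CDH2 was lower with CB in both arms (-0.88 ± 0.12 without and -1.29 ± 0.12 after RA). CDH2 fell with time in untreated cells (-0.96 ± 0.12) and rose after RA (0.93 ± 0.11), and this difference of differences passed its own test (1.89 ± 0.16, edgeR adjusted p = 7.6e-09).

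CDH3, P-cadherin of basal epithelium, kept within 215 to 431 CPM in all 18 libraries. RA was followed by a higher level at day 6 (0.27 ± 0.08) and with CB (0.29 ± 0.08), and by a lower one at day 9 without CB (-0.40 ± 0.08), all called by edgeR. CDH4, R-cadherin, was low outside the RA group of day 9, where its libraries gave 15.6, 20.7 and 24.2 CPM against 2.49, 1.70 and 1.21 untreated and 1.48, 1.51 and 1.65 when CB followed RA. Those groups did not overlap, and the differences were 3.30 ± 0.25 and -3.72 ± 0.25. CDH15, M-cadherin of muscle, had 3.62, 2.77 and 3.37 CPM with CB alone and no more than 1.02 CPM in any library of another group, with no read at all in the RA group of day 6 and 12 reads in its untreated control.

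**Figure D2:**
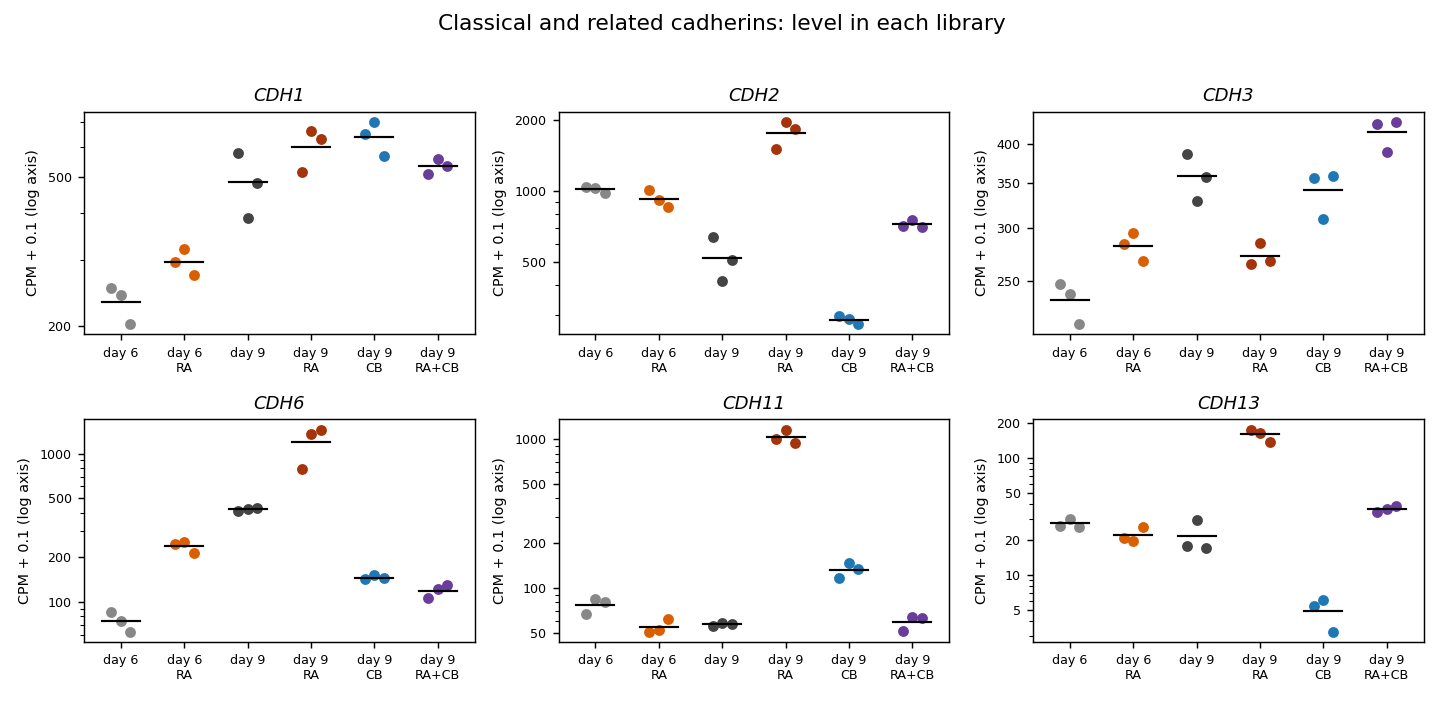
Level of 6 cadherins in each of the 18 libraries (points, CPM + 0.1 on a log axis) by group (horizontal axis, RA retinoic acid, CB CHIR99021 and BMP4), with bars at the group means. CDH11 is between 944 and 1161 CPM in the RA libraries of day 9 and below 150 CPM in every other library.

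Among the type II cadherins, CDH11, known from mesenchyme and bone, was highest after RA at day 9. It was 55.0, 57.5 and 57.4 CPM in untreated cells of day 9, 1003, 1161 and 944 after RA, 116, 147 and 134 with CB alone and 51.4, 63.4 and 62.6 when CB followed RA. The RA libraries stood above all others, and the doubly treated libraries overlapped the untreated ones. CDH11 was 4.20 ± 0.12 higher in log2 after RA without CB (edgeR adjusted p = 1.3e-17), where read kind cannot be told apart from RA. With CB, within 1 read kind, the RA difference was -1.17 ± 0.11 (edgeR adjusted p = 9.5e-09). The interaction was -5.37 ± 0.16 (edgeR adjusted p = 1.3e-16). Within 1 read kind, CDH11 was higher at day 9 than at day 6 after RA (4.25 ± 0.12), a contrast of days and not of RA, and lower with CB after RA (-4.14 ± 0.11). On day 6 CDH11 was lower after RA, at 50.7, 52.1 and 61.3 against 66.6, 84.0 and 80.6 CPM (-0.50 ± 0.11).

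CDH6, K-cadherin of kidney and other epithelia, was higher after RA on both days. At day 6 it went from 85.4, 74.3 and 62.9 CPM to 245, 254 and 213, and at day 9 from 407, 424 and 429 to 787, 1358 and 1451. Neither pair of groups overlapped, and replicate 1 of the day 9 RA group was well below the other 2. The rises were 1.68 ± 0.19 and 1.51 ± 0.17 in log2 (edgeR adjusted p = 2.6e-06 and 2e-06). With CB, CDH6 was 143, 151 and 144 CPM without and 106, 122 and 129.6 after RA, and the difference did not pass (-0.30 ± 0.18, edgeR adjusted p = 0.19). It was lower with CB after RA, within 1 read kind (-3.34 ± 0.19).

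The type II members best known from brain were low and moved apart from one another. CDH12 was 9.60, 12.5 and 10.6 CPM after RA at day 6 against 2.14, 1.91 and 1.72 untreated (2.51 ± 0.32), and at day 9 it was 0.963, 5.01 and 4.67 after RA against at most 0.173 in the untreated libraries, which held 6 reads in all. CDH18 was highest when CB followed RA, at 4.64, 5.22 and 4.13 CPM against 0.362, 0.443 and 0.259 with CB alone (3.76 ± 0.34, edgeR adjusted p = 6e-09) and 0.160, 0.627 and 0.222 with RA alone. CDH20 reversed with CB. After RA it was at 5.94, 7.0 and 8.33 CPM against 0.603, 0.340 and 0.173 untreated. With CB it was at 0.191, 0.402 and 0.413 after RA against 3.4, 6.76 and 1.71 without. Its RA differences were 3.87 ± 0.47 and -3.60 ± 0.52. CDH7 was also higher after RA without CB (1.28 ± 0.25) and lower with it (-1.47 ± 0.27), with 7.62, 17.8, 10.1 and 3.46 CPM as means of the untreated, RA, CB and doubly treated groups of day 9. CDH10 rose from day 6 to day 9 with and without RA, by 2.80 ± 0.25 and 2.87 ± 0.23, and was lower with CB in both arms (-1.17 ± 0.18 without and -2.29 ± 0.22 after RA). CDH8 was lower after RA at day 6 (-1.25 ± 0.27). CDH24, a further type II member, was higher than these and stayed between 72.7 and 111 CPM in all 18 libraries.

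CDH13, T-cadherin, is held in the membrane by a lipid anchor in place of a cytoplasmic tail and is known from heart and vessels. It was 17.4, 29.3 and 16.9 CPM in untreated cells of day 9 and 175, 164 and 137 after RA, and 5.36, 5.99 and 3.16 with CB alone and 34.0, 36.5 and 38.3 when CB followed RA. RA libraries were higher in both settings, by 2.95 ± 0.18 and 2.97 ± 0.22 in log2 (edgeR adjusted p = 4.4e-10 and 1.2e-08), and the interaction did not pass (0.02 ± 0.26, edgeR adjusted p = 0.95). At day 6 the groups overlapped (-0.34 ± 0.20). CDH5, VE-cadherin of endothelium, was 30.2, 50.0 and 47.4 CPM at day 6 and 1.41, 20.9 and 21.8 at day 9 in untreated cells, with replicate 1 of day 9 far below the other 2. No RA or CB difference of CDH5 passed, although the RA libraries of day 6 were all below the untreated ones (-1.14 ± 0.60, edgeR adjusted p = 0.14).

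Markers of several cell types had higher sums in the RA group of day 9 than in untreated cells of that day. The 9 cardiac muscle markers summed to 1222 to 1777 CPM there, 63.0 to 71.1 in untreated cells and 10.5 to 11.5 when CB followed RA, with 7 called higher and 1 lower after RA (background 32.5% each), and the heart myosin MYH6 had a mean of 723 CPM against 0.197. The 12 mesenchyme markers summed to 4877 to 6354 CPM after RA, 1026 to 1597 untreated and 779 to 819 with both treatments, 8 of them called higher after RA. The 9 neural and neural crest markers summed to 57.4 to 99.0 CPM against 11.4 to 13.5, and the 11 endoderm and epithelium markers to 10363 to 10724 against 3238 to 4125. Of the 6 neural markers tested 3 were called higher and 0 lower, and of the 11 endoderm markers 10 and 0 (background 32.5% each). The endoderm sum was also higher after RA at day 6, at 10308 to 11779 against 4734 to 5328 CPM. Each mesenchyme and endoderm marker had reads in every group, and of the cardiac markers MYBPC3 and SMYD1 had none in untreated cells of day 9. The part of these cells in the levels of CDH2, CDH4, CDH6, CDH11 and CDH13 was not tested.

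CDH26 had the largest rise of any member at day 6. It is a cadherin of gut and airway epithelium, and lies on chr20:59958423-60035934 (GRCh38). Untreated cells of day 6 gave 0.402, 0.637 and 0.322 CPM and RA-treated cells 34.4, 31.2 and 25.3, from 10 and 873 reads in all. The groups were far apart, and the difference was 6.09 ± 0.35 in log2 (edgeR adjusted p = 1.1e-12). By day 9 the RA cells were at 0.642, 0 and 0.333 CPM, below the untreated cells at 2.33, 2.04 and 1.56 (-2.84 ± 0.52). The loss from day 6 to day 9 after RA, within 1 read kind, was -6.69 ± 0.37 (edgeR adjusted p = 2.7e-13), and no CB library exceeded 1.11 CPM. Every RA library of day 6 was more than 10 times above every library of the other groups.

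PCDH8, paraxial protocadherin of early mesoderm, went the other way at day 6. It lies on the minus strand of chr13:52842889-52848640 (GRCh38). Its levels were 67.6, 50.8 and 76.8 CPM untreated and 0, 0.245 and 0.142 after RA, or 1539 and 4 reads in all. The fitted difference was -8.74 ± 1.0 in log2 (edgeR adjusted p = 1e-05), with its size set by those few reads. At day 9 it was 47.0, 11.4 and 8.64 CPM untreated and 19.1, 12.9 and 6.00 after RA, which overlapped and did not pass (-1.06 ± 0.53, edgeR adjusted p = 0.097). Replicate 1 of the untreated group was at least 4 times the other 2, and without it the fall with CB alone was -1.50 in place of -2.85 and that from day 6 to day 9 was -2.70 in place of -1.35. The fall from day 6 to day 9 no longer passed without untreated replicate 2 or 3 of day 9 (-1.07 and -1.02, edgeR adjusted p = 0.091 and 0.076) or without untreated replicate 1 or 3 of day 6 (-1.34 and -1.23, edgeR adjusted p = 0.068 and 0.088). Within 1 read kind PCDH8 came back from day 6 to day 9 after RA (6.33 ± 1.27), and CB after RA left it at 0.335, 0.502 and 0.276 CPM (-5.02 ± 1.0).

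RA acts through receptors that bind repeats of a short half-site, and the promoter windows of CDH26 and PCDH8 are shown because these members had the largest changes on the day RA ended. The windows run from 250 bases before to 50 after the annotated start (RefSeq, GRCh38.p14, gene strand). CDH26 lies on the plus strand. Capitals mark the half-site AGGTCA on either strand, or its variant GGGTCA with another opening base, its variant AGTTCA with another inner base, or GGTTCA with both. CDH26 has a second annotated start, whose window (chr20:59996124-59996423) holds none, and PCDH8's window holds none.

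CDH26 (chr20:59958173-59958472): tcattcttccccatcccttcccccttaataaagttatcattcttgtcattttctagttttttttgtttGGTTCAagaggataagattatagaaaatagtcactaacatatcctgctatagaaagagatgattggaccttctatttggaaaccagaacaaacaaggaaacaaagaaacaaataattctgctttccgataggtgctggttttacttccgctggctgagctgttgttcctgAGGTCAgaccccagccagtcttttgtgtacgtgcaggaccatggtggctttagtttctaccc

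PCDH8 (chr13:52848591-52848890): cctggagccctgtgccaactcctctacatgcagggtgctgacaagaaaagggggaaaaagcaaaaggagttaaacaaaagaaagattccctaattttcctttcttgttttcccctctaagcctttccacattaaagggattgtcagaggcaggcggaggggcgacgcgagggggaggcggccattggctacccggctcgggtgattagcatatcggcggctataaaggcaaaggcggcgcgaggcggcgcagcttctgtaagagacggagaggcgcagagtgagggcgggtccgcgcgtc

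The CDH26 window has GGTTCA 182 bases and AGGTCA 12 bases upstream of the start. AGGTCA alone was found in 13.9% of the windows of all 27305 genes and in 8.54% of the 82 members that had one. A direct repeat of these half-sites with a spacing of 1, 2 or 5 bases was in 0.132%, 0.0439% and 0.0806% of all windows and in 0 of the 82 members' windows. A match is a description of the letters only.

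**Figure D3:**
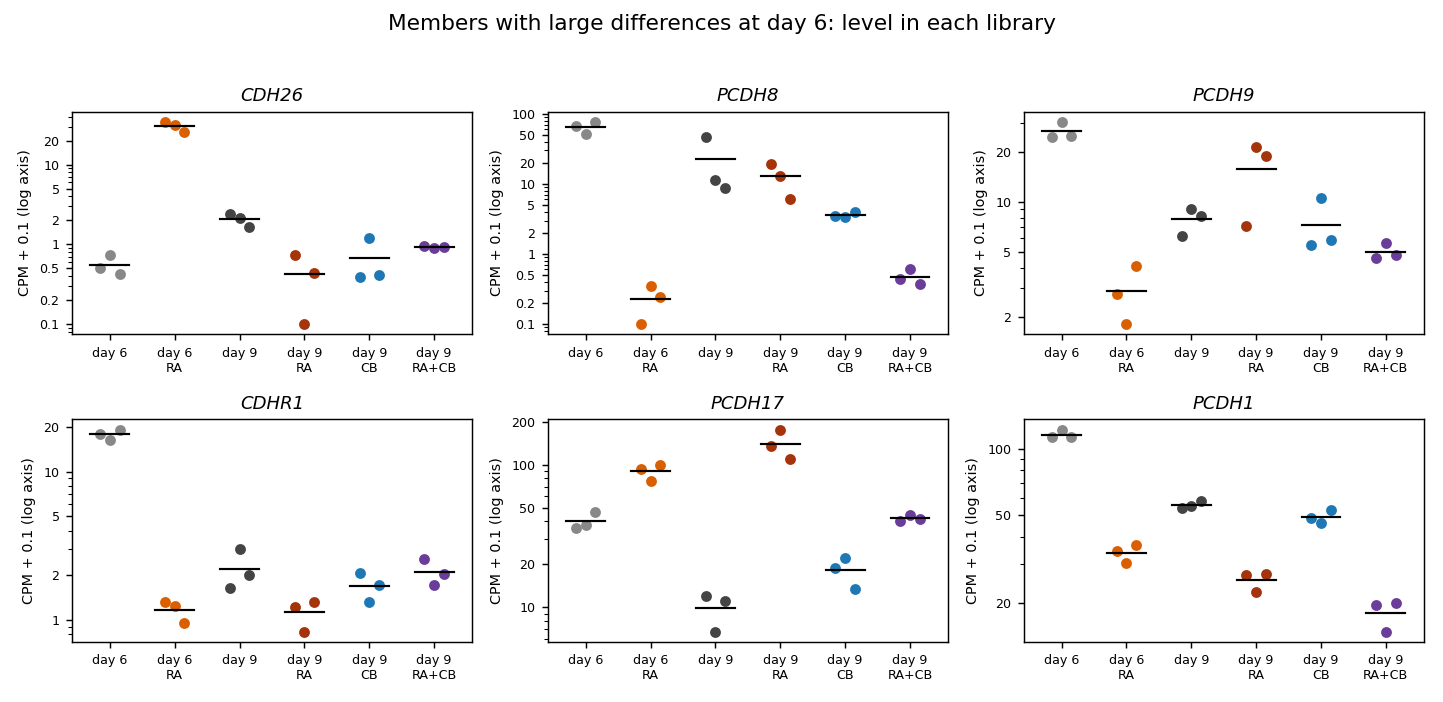
Level of 6 members in each of the 18 libraries (points, CPM + 0.1 on a log axis) by group (horizontal axis, RA retinoic acid, CB CHIR99021 and BMP4), with bars at the group means. CDH26 stands at 25.3 to 34.4 CPM in the RA libraries of day 6 alone, where PCDH8, PCDH9 and CDHR1 are at their lowest or near it.

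Of the 10 non-clustered protocadherins tested, 7 were lower and 2 higher after RA at day 6 (background 23.4% and 25.3%), with a median of -1.32 in log2 against 0.00 over all tested genes. PCDH9, a neural delta protocadherin, was 24.8, 30.6 and 25.1 CPM untreated and 2.65, 1.72 and 3.96 after RA (-3.34 ± 0.38, edgeR adjusted p = 3.1e-06). PCDH1, known from airway epithelium, was 114, 123 and 113 and 34.3, 30.5 and 36.5 CPM (-1.79 ± 0.10, edgeR adjusted p = 5.3e-13). In both genes the groups were well apart. PCDH7, PCDH10, PCDH12 and PCDH19 were also lower, with log2 differences of -1.19, -1.44, -1.82 and -1.12. PCDH12, an endothelial protocadherin, moved beside the summed level of the 11 endothelial and blood markers, 299 to 360.3 CPM untreated and 88.6 to 149.6 after RA. Of the 10 markers tested, 0 were called higher and 3 lower (background 25.3% and 23.4%). The part of such cells in the level of PCDH12 was not tested. PCDH17 was the larger of the 2 rises, from 35.9, 37.4 and 46.1 to 92.8, 76.8 and 99.1 CPM (1.16 ± 0.20), and PCDH18 the smaller (0.37 ± 0.13). PCDH10, a delta protocadherin of brain, was 45.7, 32.8 and 30.0 CPM untreated and 11.6, 12.2 and 16.6 after RA, and those groups did not overlap.

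The RA response differed between the days by test in 8 of the 10, beside 50.9% of all genes, and was more positive at day 9 in 7 of them. PCDH9 was lower after RA at day 6 and higher at day 9 (1.14 ± 0.34), with 6.15, 9.02 and 8.12 CPM untreated and 7.06, 21.5 and 18.9 after RA at day 9 (interaction 4.48 ± 0.52), although these groups overlapped. PCDH7 was 411, 339 and 380.0 and 410.2, 426 and 351 CPM at day 9, which did not differ by test (0.07 ± 0.10). Of the 7 that were lower at day 6, PCDH1 alone was also called lower at day 9 without CB, at 54.1, 55.0 and 57.9 and 26.8, 22.5 and 27.1 CPM (-1.13 ± 0.10). With CB, within 1 read kind, PCDH1 was at 48.4, 45.9 and 53.0 and 19.5, 14.8 and 19.8 CPM (-1.44 ± 0.10, edgeR adjusted p = 8e-11). PCDH19 and PCDH8 were also called lower after RA with CB (-0.89 ± 0.26 and -3.22 ± 1.18, edgeR adjusted p = 0.007 and 0.042). The PCDH8 difference no longer passed when any library of either group was left out. PCDH17 stayed higher, at 11.9, 6.64 and 10.9 and 134, 176 and 109 CPM without CB (3.74 ± 0.23) and at 18.7, 22.1 and 13.4 and 40.2, 44.4 and 41.6 with it (1.25 ± 0.21).

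PCDH7 fell with CB in both arms, to 112, 137 and 102 CPM without RA and 127, 159 and 143 after it (-1.70 ± 0.10 and -1.47 ± 0.10). PCDH19 rose with CB in both arms, from 1.54 to 6.47 CPM without RA (2.12 ± 0.30) and from 1.58 to 3.50 after it (1.08 ± 0.33). PCDH18 rose with CB after RA, from 29, 25.6 and 22.3 to 74.8, 74.5 and 74.7 CPM (1.55 ± 0.14) but not by test without it (0.23 ± 0.13, edgeR adjusted p = 0.17), and the interaction passed (1.32 ± 0.19, edgeR adjusted p = 1.2e-05).

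Among the cadherin-related genes, CDHR1, a photoreceptor cadherin, fell at day 6 from 17.8, 16.2 and 19.1 CPM to 1.21, 1.14 and 0.849 with RA (-4.01 ± 0.25, edgeR adjusted p = 4.2e-12), and it was at most 2.89 CPM in every library of day 9. CDHR3, a cadherin of ciliated airway cells, was 5.78, 10.1 and 16.1 CPM after RA at day 9 against 1.61, 1.36 and 1.73 untreated (2.77 ± 0.32), and 2.87, 2.81 and 4.0 when CB followed RA. CDH23, a cadherin of hair cell tip links, was highest in that doubly treated group, at 3.44, 3.21 and 4.96 CPM.

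All 7 FAT and CELSR genes were expressed. FAT1, the highest of them per length, was 898, 804 and 915 CPM in untreated cells of day 9 and 1272, 1347 and 1265 after RA (0.57 ± 0.08, edgeR adjusted p = 3.1e-06), and with CB 509, 460.3 and 403 and 661, 659 and 716 (0.57 ± 0.08, edgeR adjusted p = 7.8e-06). The RA libraries were higher and the CB libraries lower in each case, and the interaction was 0.00 ± 0.12. CELSR1, a core planar polarity cadherin, was higher after RA on both days and with CB, by 0.70 ± 0.07, 1.25 ± 0.07 and 1.01 ± 0.07, with levels such as 241, 262 and 252 against 103, 101 and 114 CPM. CELSR2 was higher after RA at day 6 and with CB (0.34 ± 0.08 and 0.65 ± 0.08), and CELSR3 lower at day 6 and day 9 without CB (-0.38 ± 0.09 and -0.36 ± 0.09).

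FAT4, which binds the Dachsous cadherin DCHS1, differed in direction between the settings. It was 22.7, 25.9 and 20.4 CPM untreated and 5.96, 5.48 and 6.94 after RA at day 6 (-1.92 ± 0.17), and 70.6, 62.1 and 78.3 and 103, 105 and 97.3 at day 9 (0.53 ± 0.12). With CB it was 59.5, 83.0 and 56.8 without and 19.1, 21.5 and 18.2 after RA (-1.75 ± 0.13, edgeR adjusted p = 2.6e-10). The groups did not overlap in any of these 3 comparisons, and the direction at day 9 without CB was opposite to the other 2. The interaction of RA with CB was -2.28 ± 0.17 and that of RA with day 2.45 ± 0.21 (edgeR adjusted p = 4.5e-10 and 2.8e-09). FAT3 fell with CB in both arms (-0.76 ± 0.08 and -0.36 ± 0.08). FAT2 was low, with 12 reads in all after RA at day 9 and 93 untreated (-2.43 ± 0.51).

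Of their 14 planar polarity and Dachsous partners, 2 were higher and 6 lower after RA at day 6 (background 25.3% and 23.4%), 5 and 6 at day 9 (background 32.5% each), and 3 and 4 with CB (background 21.2% and 22.1%). The medians were -0.15, 0.07 and 0.05. PRICKLE2 had the largest change at day 6, from 155, 155 and 174 to 35.1, 29 and 27.9 CPM (-2.40 ± 0.11). DCHS2 with CB went from 7.29 to 1.03 CPM after RA (-2.97 ± 0.37), and FJX1, a Four-jointed kinase, was lower after RA at day 9 (-1.75 ± 0.13).

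Of the 7 desmosomal cadherins, DSG2 and DSC2 of simple epithelia and heart, and DSC3, had enough reads to be tested. DSC2 was 167, 123 and 140.3 CPM untreated and 277, 343 and 282 after RA at day 9, but 141, 129.8 and 143 with CB and 73.5, 72.0 and 75.7 when CB followed RA. The groups did not overlap in either comparison, and RA went with a higher level in the first (1.06 ± 0.10) and a lower one in the second (-0.91 ± 0.10), an interaction of -1.96 ± 0.14 (edgeR adjusted p = 6.8e-11). DSG2 was lower after RA at day 6, at 448, 428 and 429 against 602, 638 and 636 CPM (-0.52 ± 0.07), and lowest when CB followed RA, at 213, 219.9 and 238 CPM (-1.05 ± 0.07 against RA alone). DSC3, of stratified epithelia, was 13.0, 7.66 and 6.22 CPM untreated and 12.7, 19.2 and 15.8 after RA at day 9 (0.72 ± 0.21), and lower with CB in both arms (-0.80 ± 0.22 without and -1.37 ± 0.22 after RA). DSG3 had at most 1 read in any group.

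The 22 catenin, plaque and nectin partners, of which 21 were tested, had 9 higher and 5 lower after RA at day 9 (background 32.5% each) and 7 and 9 with CB (background 21.2% and 22.1%). For CB after RA 4 were higher and 11 lower (background 32.1% and 32.3%), with a median of -0.50 against 0.02 over all genes. CTNNA2, the neural alpha-catenin, was 51.2, 60.2 and 61.5 CPM with CB alone and 1.72, 1.21 and 2.07 when RA came first (-5.12 ± 0.26, edgeR adjusted p = 4.4e-12), and at most 6.21 CPM in every library of the other groups. CTNND2, the neural delta-catenin, was higher after RA at day 9 both without CB, at 81.7, 139 and 166 against 25.7, 21.8 and 24.7 CPM, and with it, at 130.5, 135 and 122 against 14.0, 14.7 and 16.6 (2.41 ± 0.20 and 3.09 ± 0.20). Plakoglobin (JUP) and plakophilin PKP2 were lowest in the doubly treated group, as DSG2 and DSC2 were, at 139.5, 139 and 141 and 93.3, 103 and 108 CPM, whereas desmoplakin (DSP) was 1524, 1467 and 1509 CPM there and 788, 719 and 686 with CB alone (1.04 ± 0.11).

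Of 14 tested regulators of epithelial state, several of them repressors of CDH1, 0 were higher and 7 lower after RA at day 6 (background 25.3% and 23.4%), with a median of -0.94 in log2. The falling genes included the repressors ZEB2 (-1.96 ± 0.50), SNAI2 (-2.05 ± 0.42) and SNAI1 (-0.84 ± 0.26) but also GRHL1 (-1.36 ± 0.13), an activator of epithelial genes. After RA at day 9, 5 were higher and 6 lower (background 32.5% each). ZEB2 was then 10.3, 12.8 and 16.1 CPM against 1.0, 7.49 and 2.59, and 2.30, 2.01 and 1.10 when CB followed RA. GRHL1 was 128, 117 and 135 CPM in untreated cells of day 9 and at most 33.7 CPM in every library of the treated groups of that day.

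The clustered protocadherins lie side by side on chromosome 5 (GRCh38), the alpha genes within chr5:140786140-141012347, the beta genes within chr5:141051374-141249365 and the gamma genes within chr5:141330514-141512975. Each alpha and gamma gene is 1 variable exon joined to constant exons that its cluster shares. Reads from such copies cannot be placed with certainty: in the GENCODE v29 transcripts, the share of a gene's 50-base windows that also occur in another gene had a median of 55.3% for alpha, 19.9% for beta and 44.1% for gamma genes, against 0.543% for the CDH genes. Values of single isoforms are uncertain for that reason, and sums over a cluster less so.

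At day 9 the summed level of the gamma cluster was lower after RA, whether or not CB was given. Its 22 genes summed to 203, 203 and 205 CPM in untreated libraries and 88.4, 102 and 79.9 after RA, and to 246, 254 and 242 with CB and 104, 104 and 110.3 when CB followed RA. In both settings every RA library was below every library without RA. In TPM the gamma sums were 104 ± 2.92 and 56.6 ± 6.78 (SD, n = 3) without CB and 149 ± 8.90 and 67.1 ± 4.56 with it. At day 6 the CPM sums were 175, 197 and 169.6 untreated and 127, 129.7 and 129 after RA. The beta sums were 225 ± 30.5 and 150.2 ± 20.9 CPM (SD, n = 3) without CB and 246 ± 8.95 and 164 ± 1.05 with it, and did not overlap in either case. The alpha sums were 83.9 ± 3.87 and 65.1 ± 1.61 CPM with CB, and 91.1 ± 6.99 and 69.4 ± 11.9 without. In TPM the sums without CB were 193 ± 22.9 and 160 ± 22.2 for beta and 32.4 ± 1.91 and 30.1 ± 5.25 for alpha. Both pairs overlapped within 1 SD. With CB they were 251 ± 13.8 and 174 ± 4.27 TPM for beta, and 35.5 ± 2.73 and 28.1 ± 0.593 for alpha. The median of all genes on TPM was 0.28 in log2 without CB and 0.08 with it. At day 6 the beta CPM sums overlapped and the alpha sum was higher after RA, at 77.8, 84.3 and 78.7 against 72.4, 68.8 and 69.4 CPM.

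**Figure D4:**
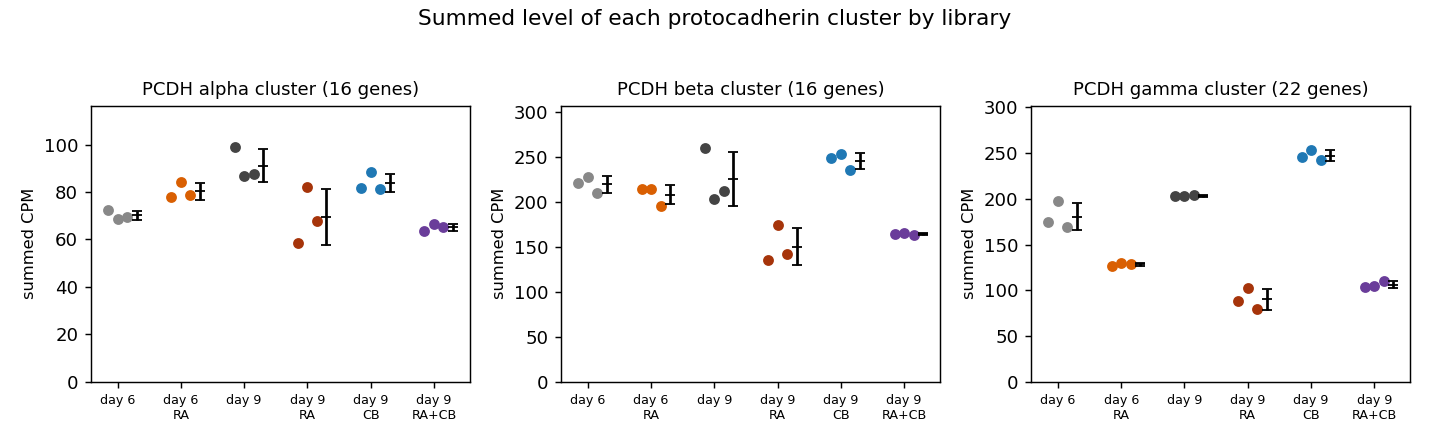
Summed CPM of the alpha, beta and gamma protocadherin clusters (vertical axes from 0) in each library (points) by group (horizontal axis, RA retinoic acid, CB CHIR99021 and BMP4), with black marks for the group mean ± SD of 3 libraries. The gamma sums are 79.9 to 110.3 CPM in the RA libraries of day 9, with or without CB, and 203 to 254 CPM in the libraries of that day without RA.

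By gene, 0 of the 44 clustered protocadherins tested were called higher and 29 lower after RA with CB (background 21.2% and 22.1%). Of the 29, 13 were lower by at least 2-fold (background 7.39%), and this comparison is within 1 read kind. Without CB the counts were 0 and 31 (background 32.5% each), with 21 lower by at least 2-fold (background 11.9%). The medians were -0.68 and -0.90 in log2, against -0.01 and -0.02 over all genes. By cluster, the medians with CB were -1.02 for gamma, -0.59 for beta and -0.50 for alpha, and without CB -1.26, -0.71 and -0.27. On TPM the medians with CB were -0.64, -0.45 and -0.38, where the median of all genes was 0.08, and without CB -0.55, -0.31 and 0.04, where it was 0.28, so the alpha median without CB was above 0 on that scale but below that of all genes. With read kind as a covariate, 14 gamma, 10 beta and 6 alpha genes were called lower with CB, and none without it. After RA at day 6, 6 were higher and 10 lower (background 25.3% and 23.4%), and all 7 gamma genes called were among the latter (gamma median -0.19, and 0.02 on TPM, where the median of all genes was 0.19).

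PCDHGB7 had the largest called fall of the gamma genes with CB. It was 55.5, 58.0 and 56.0 CPM with CB and 14.5, 12.6 and 19.6 when CB followed RA (-1.89 ± 0.13, edgeR adjusted p = 8.3e-11), and 44.1, 44.9 and 42.2 and 12.7, 14.0 and 8.89 without CB (-1.89 ± 0.14, edgeR adjusted p = 1.2e-10). PCDHGA10 was 33.8, 35.8 and 32.5 and 10.6, 12.8 and 10.5 CPM with CB (-1.60 ± 0.12). Its neighbour PCDHGB6 fell less, from 54.7, 52.8 and 56.5 to 29.9, 32.2 and 33.1 CPM (-0.79 ± 0.08). For all 3 the groups did not overlap. The C-type gene PCDHGC4 went from 10.4, 17.2 and 13.5 to 1.93, 1.04 and 1.67 CPM without CB (-3.12 ± 0.28) and from 19.7, 24.2 and 19.0 to 8.61, 7.13 and 8.13 with it (-1.37 ± 0.19), and PCDHGC3 was lower after RA already at day 6 (-1.31 ± 0.13).

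In the beta cluster, PCDHB5 was 59.3, 55.8 and 56.1 CPM with CB and 28.4, 27.1 and 29.5 when CB followed RA (-1.01 ± 0.11), and PCDHB2 was 86.6, 90.4 and 82.1 and 68.0, 68.3 and 63.0 (-0.37 ± 0.10). PCDHB15 was 26.3, 29.8 and 26.1 and 17.7, 17.0 and 19.8 CPM (-0.59 ± 0.11), and none of these 3 beta genes overlapped between the groups. In the alpha cluster PCDHA6 was 17.0, 20.3 and 19.9 and 14.8, 12.2 and 13.1 CPM with CB (-0.50 ± 0.11), and PCDHA10 16.1, 18.5 and 14.4 and 12, 12.6 and 11.2 (-0.44 ± 0.14). The C-type gene PCDHAC2 was lower after RA at day 6, day 9 and with CB (-1.62 ± 0.39, -1.69 ± 0.29 and -2.66 ± 0.41), at no more than 3.7 CPM in any library. PCDHA12 was 19.9, 20.9 and 15 and 14.1, 20.5 and 17.6 CPM at day 9, which overlapped (-0.10 ± 0.13).

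**Figure D5:**
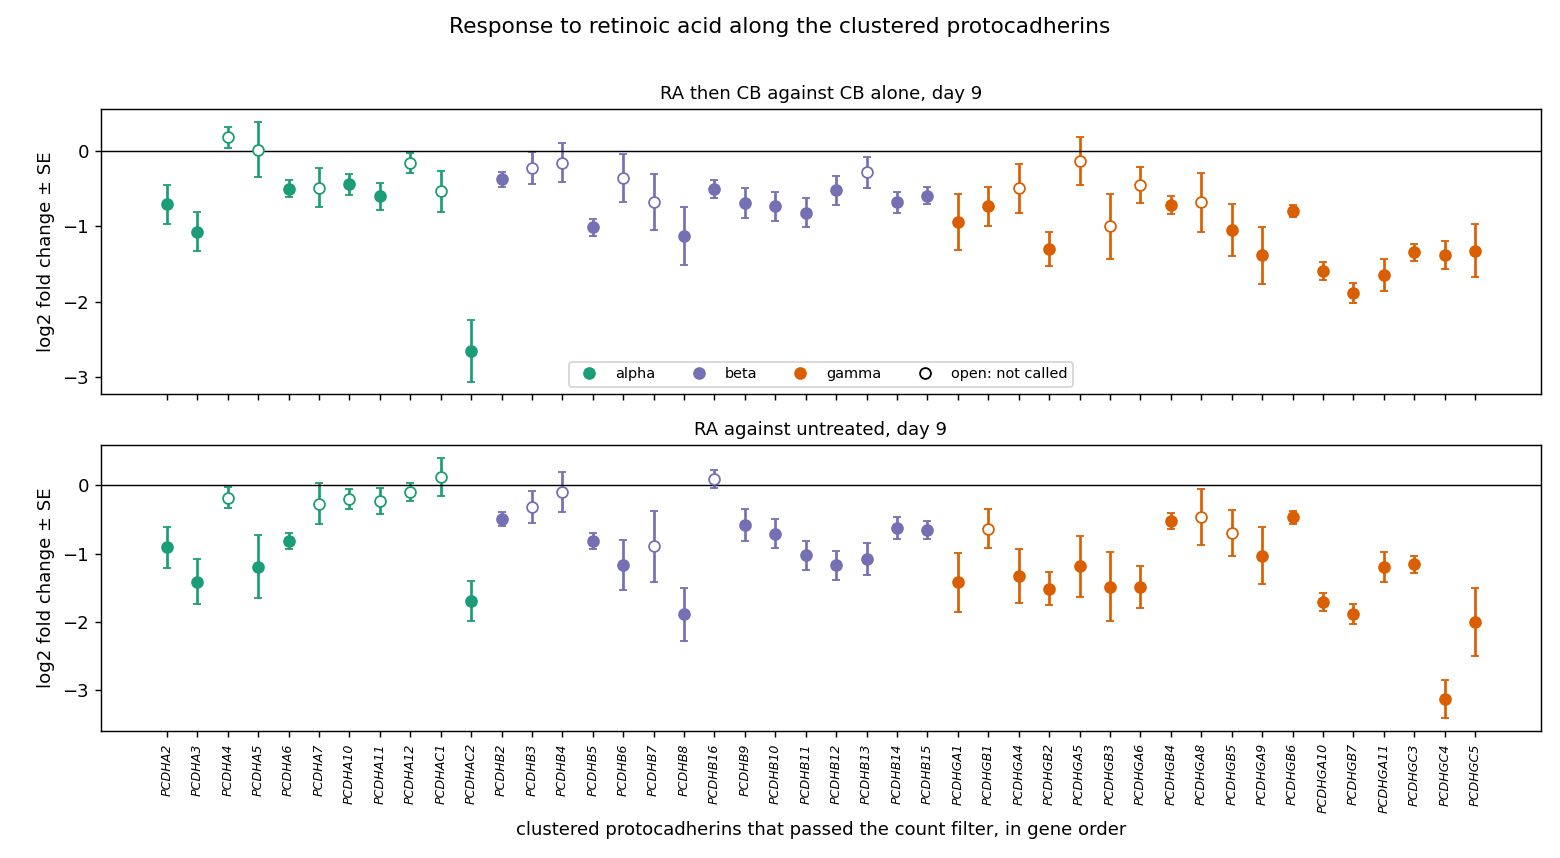
Log2 fold change ± SE (vertical axis) of the 44 tested clustered protocadherins in gene order along the clusters (horizontal axis) for RA then CB against CB alone (top) and RA against untreated cells (bottom) at day 9, 3 against 3 libraries, with filled points where the gene was called. No gene was called above 0 in either panel, and the gamma genes reach lower than the beta genes. The lowest point is the alpha gene PCDHAC2 (-2.66) in the top panel and the gamma gene PCDHGC4 (-3.12) in the bottom panel.

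From day 6 to day 9 without RA, 16 clustered protocadherins rose and 2 fell (background 24% and 22.9%), and after RA 1 rose and 20 fell (background 28.5% and 30.3%). The difference itself was called lower in 24 and higher in 0 (background 26% lower). The comparison without RA is not within 1 read kind. In TPM, where the median of all genes was -0.16 in log2, the gamma sums without RA were 105 ± 4.87 at day 6 and 104 ± 2.92 at day 9 (SD, n = 3). They were 217 ± 3.31 and 193 ± 22.9 for beta, and 28.8 ± 1.48 and 32.4 ± 1.91 for alpha. With CB, 6 were higher and 3 lower without RA (background 21% and 21.8%), and 7 and 5 after it (background 32.1% and 32.3%). The interaction of RA with CB was called in 5 of the 44 (background 53.4%), PCDHGC4 the largest at 1.75 ± 0.35.

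The promoter windows of 6 gamma genes are shown in part because the gamma genes were lower together after RA at day 9. The 6-base word CGCTGT, chosen after the windows were seen, was the most frequent one on the gene strand in the windows of the 47 clustered protocadherins that had one (RefSeq, GRCh38.p14). On either strand it was found in 17 of 20 gamma windows, 7 of 13 alpha and 1 of 14 beta windows, and in 11.3% of the windows of all genes. In the gamma windows it lay 39 to 199 bases upstream of the start, at a median of 58. The 60 bases around it are given on the gene strand, which is the plus strand, with the word in capitals.

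PCDHGB2 (chr5:141359910-141359969): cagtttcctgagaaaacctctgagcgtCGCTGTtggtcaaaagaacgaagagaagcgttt
PCDHGA6 (chr5:141373824-141373883): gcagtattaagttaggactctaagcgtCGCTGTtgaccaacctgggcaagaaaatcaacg
PCDHGB6 (chr5:141407913-141407972): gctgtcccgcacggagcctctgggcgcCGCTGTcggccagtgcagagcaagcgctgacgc
PCDHGA10 (chr5:141412920-141412979): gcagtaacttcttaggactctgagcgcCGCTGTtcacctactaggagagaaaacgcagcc
PCDHGC3 (chr5:141475869-141475928): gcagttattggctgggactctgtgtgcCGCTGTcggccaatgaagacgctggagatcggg
PCDHGC4 (chr5:141484941-141485000): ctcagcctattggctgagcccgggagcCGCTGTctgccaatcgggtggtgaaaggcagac

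Only genes that hold the word are shown, and they are a selection from the 17 gamma genes whose window held it. PCDHGB7, which had the largest called fall of the gamma genes with CB, is not among those 17. Neither is PCDHGA11 (-1.64 ± 0.22 with CB), whose difference was larger than that of any gene shown. The differences of the 6 genes with CB ranged from -1.60 for PCDHGA10 to -0.45 for PCDHGA6, which did not pass the test. Beta windows held a longer word, TGGCGCT, in 13 of 14 (92.9%, against 4.11% of all windows). It did not come from the ranking of 6-base words that gave CGCTGT. Its choice was not shown to be independent of these windows, so the shares are descriptive and no test of enrichment. The words share the letters CGCT, and in the PCDHB3 window they overlap at the same site. Both words were searched on both strands, and a match says nothing of a factor's binding. Of 12 genes known to act on these promoters, such as CTCF, the cohesin subunits and SMCHD1, 5 were higher and 2 lower after RA with CB (background 21.2% and 22.1%) and 4 and 3 without (background 32.5% each), none of them by 2-fold. CTCF was 106, 106 and 106 CPM with CB and 118, 117 and 114 when CB followed RA (0.14 ± 0.06, edgeR adjusted p = 0.093).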

How the data were processed

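Poly(A) RNA of H1-derived cells was sequenced in 18 libraries, made with the TruSeq stranded mRNA kit per the labels' protocols. STAR 2.7.9 and the GRCh38 build are named in the submitters' processing notes, and how reads were counted, on which annotation and with which strand option is not given in the sources used here. Raw counts and TPM of each gene were deposited by the authors, with 18 library columns that all matched a label. The 36 genes without a symbol, with 0.001% of the counts, were left out. Library totals were 5.79 to 25.37 M counts, and shallower libraries measure low genes less precisely.

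From the counts, edgeR 4.0.16 (R 4.3.3) was run with trimmed mean of M-values factors, filterByExpr at a minimum count of 10, robust quasi-likelihood fits of 6 group means over all 18 libraries, and Benjamini-Hochberg adjustment over 15531 genes at 0.05. Tests were two-sided. Alternatives were other scaling factors, other filters on low counts, only the libraries compared, DESeq2 1.42.0, limma 3.58.1 on log2(TPM + 0.5), a replicate term, a covariate for read kind (63 genes at least 10-fold apart at a mean of at least 2 CPM), and leaving out each library. The scripts were tested on simulated data. The members and gene lists were chosen with earlier results of these data known. Members were named for fixed roles, as the largest called changes (at least 2-fold, at least 2 CPM in the higher group, no overlap of libraries, at most 8 in each direction), or as the 3 of highest mean CPM in each cluster. Genes of other lists were named by their largest called changes, except CDH24, MYH6, MYBPC3, SMYD1, SNAI1 and CTCF, which were named after their values were seen. Promoter windows come from RefSeq (GRCh38.p14), in which 82 of 107 members had one.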

Additional observations from a re-analysis of the deposited data

Results flagged for a closer look

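For some members the RA difference at day 9 without CB and that with CB differed by an interaction test (edgeR quasi-likelihood, adjusted over all genes). Listed are those called with a difference of at least 2-fold and a mean of at least 2 CPM in the highest group, at most 8 in each direction. The interaction was positive in log2 for CDH23 (2.34), PCDHGC4 (1.75), PCDH18 (1.32), CDHR1 (1.27) and PCDHGA6 (1.04). It was negative for CDH20 (-7.47), CDH11 (-5.37), CDH7 (-2.75), PCDH17 (-2.49), CDH4 (-2.46), FAT4 (-2.28), CDHR3 (-2.14) and DSC2 (-1.96). CDH26 had an interaction of 3.62 (edgeR adjusted p = 0.00021) and was not listed because its mean was 1.98 CPM in the highest of these groups, with 7 reads in all after RA at day 9. For CDH11, CDH20, CDH7, FAT4 and DSC2 the RA difference was called in opposite directions without and with CB. The untreated day 9 libraries are of another read kind than the other 9, so read kind cannot be told apart from this interaction.

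Between day 6 and day 9, the RA difference became more positive by the same kind of test for PCDH8 (7.68), CDH11 (4.70), PCDH9 (4.48), CDH4 (3.83), CDH20 (3.63), CDH13 (3.29), CDHR1 (3.11) and PCDH17 (2.59). The value of PCDH8 rests on 4 reads in the RA libraries of day 6, and was 9.03 without untreated replicate 1 of day 9. The RA difference became more negative for CDH26 (-8.93), FAT2 (-2.47), PCDHA3 (-2.13), PCDHGC4 (-1.96), PCDHA2 (-1.87), PCDHB12 (-1.72), PCDHB8 (-1.68) and PCDHGB2 (-1.59). The clustered protocadherins among these share reads with near copies, so their single values are uncertain.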

How the results depend on the processing

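With read kind as a covariate, which nearly coincides with treatment, 0 members were called up and 0 down for RA at day 6, for RA at day 9 and for CB without RA, 14 up for time without treatment, and 0 up and 1 down for the interaction of RA with CB. The log2 changes that then reversed were, for RA at day 6, PCDH17 -0.53, PCDHA10 -0.26, PCDHB5 0.77, PCDHGA10 0.62, PCDHGB7 1.28, DSC2 -0.21, CELSR2 -0.12 and PCDH19 4.20. For RA at day 9 they were PCDHGC4 1.03, PCDHB8 3.87, PCDHGB7 0.28, CDH26 1.64, CDH3 0.46, PCDHB2 0.042, PCDHB5 0.36, PCDHGB6 0.20 and PCDH18 0.27. For CB without RA they were CDH6 0.062, CDH8 1.81, CDH26 2.35 and FAT1 0.14, and for the interaction CDH23 -1.28, PCDHGC4 -2.42, CDH26 -0.88, CDH3 -0.18, CELSR1 0.13 and FAT3 -0.10. With limma on TPM, 24 members were down for RA at day 9, 25 up for CB without RA and 26 down for the interaction, and DSG2 for CB without RA turned to 0.0098, below the median of all genes on that scale, 0.23. The cause of these shifts was not tested. Leaving out each library in turn gave 11 to 17 members up for RA at day 6 (11 without untreated replicate 3) and 20 to 30 down for time after RA (20 without day 6 RA replicate 2 or day 9 RA replicate 3). For RA with CB it gave 12 to 16 up and 33 to 39 down. Whether the replicate numbers pair the samples was not settled. Of 21 pairs of same-numbered libraries, 4 had correlated deviations over 0.1, with correlations from -0.088 to 0.28. In 12 pairs the own number was the best match among the 3 libraries of the other group. With a replicate block, 20 members were up and 24 down for RA at day 6, 19 and 40 for RA at day 9, and 16 and 41 for RA with CB, and all 273 named calls kept their side. DESeq2, other scaling factors and other filters kept every count of members within 1.5 times. Members with few reads, such as CDH15, CDH18 and FAT2, are limited by depth.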
